A study of Homo sapiens with 16 samples.

Results

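The endoplasmic reticulum (ER) chaperones and heat shock genes were followed as 37 genes, 23 of the ER and 14 of the heat shock class, in 8 human B-cell lines cultured with or without AFN700, an inhibitor of the kinase IKKbeta. The rule that chose them lists the genes by name and uses no measured value. Of the 37, 35 had a probe set annotated to a single gene (22 ER and 13 heat shock genes), out of 19775 genes measured in this way, and the set of highest mean signal stood for each gene. All 35 passed the filter on dim genes, which kept 12305 genes. The probe sets of SYVN1, a ubiquitin ligase of the ER, and HSPA8, the constitutive HSP70 of the cytosol, carry several gene names, and neither gene is analysed here.

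By the labels, 2 lines (REC-1 and SP49) are sensitive to "stn" and to ibrutinib, an inhibitor of the kinase BTK. The 6 insensitive lines are JVM-13, JVM-2, Maver-1, Z-138, GRANTA-519 and HBL-2. Each line gave 1 Affymetrix array after 20 hours with 5 uM AFN700 and 1 after 20 hours with 0.025% DMSO, the solvent, so there were 16 arrays and the line was the replicate. The medium was DMEM for GRANTA-519 and RPMI for the rest. For JVM-13 the title of the treated sample names AFN700 while its treatment field reads AFN701, and it was kept as AFN700.

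Proteins that enter the ER are folded there by chaperones, given disulfide bonds by protein disulfide isomerases, and sent back to the cytosol for degradation when they fail to fold. When unfolded protein builds up, the membrane sensors ATF6 and IRE1 (encoded by ERN1) start the unfolded protein response, which raises transcription of the chaperones. Cells of the B lineage make more of this machinery as they become antibody-secreting plasma cells. The heat shock response is a separate program, in which the transcription factor HSF1 raises chaperones of the cytosol. The heat shock class used here also holds HSPA9, HSPD1 and HSPE1, which work in mitochondria.

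Promoters of the 2 classes are read by different factors, so their letters were compared before the expression values. The ER stress element (ERSE) is CCAAT, 9 bases of any kind, then CCACG. Its second form (ERSE-II) is ATTGG, 1 base of any kind, then CCACG. The heat shock element was searched as 3 units, GAA, TTC and GAA with 2 bases of any kind between neighbours, and as its first 2 units alone, which every 3-unit match on the same strand contains. Both strands were searched in RefSeq windows of 300 bases, from 250 before to 50 after a transcript start, and some genes have several windows. HSPA5, which encodes the chief ER HSP70 (BiP), HSP90B1, the ER HSP90, CRELD2, a secreted ER stress protein, and SDF2L1, a partner of BiP, are shown because they hold ER elements and yet differed widely in their spread between lines. HSP90AA1, the inducible HSP90 of the cytosol, and HSPB1, the small heat shock protein HSP27, are shown as a steady and a highly varied gene of the heat shock class. Each line gives the 200 bases before the start, 5′ to 3′, with the matched letters in capitals. They lie in GRCh38.p14 at chr9:125241344-125241543 on the minus strand (HSPA5), chr12:103930210-103930409 on the plus strand (HSP90B1), chr22:49918434-49918633 on the plus strand (CRELD2), chr22:21642102-21642301 on the plus strand (SDF2L1), chr14:102087045-102087244 on the minus strand (HSP90AA1) and chr7:76302473-76302672 on the plus strand (HSPB1).
HSPA5: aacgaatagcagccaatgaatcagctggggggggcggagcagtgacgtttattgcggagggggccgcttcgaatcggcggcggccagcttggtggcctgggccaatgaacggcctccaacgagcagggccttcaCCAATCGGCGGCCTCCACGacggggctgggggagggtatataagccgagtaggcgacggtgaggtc
HSP90B1: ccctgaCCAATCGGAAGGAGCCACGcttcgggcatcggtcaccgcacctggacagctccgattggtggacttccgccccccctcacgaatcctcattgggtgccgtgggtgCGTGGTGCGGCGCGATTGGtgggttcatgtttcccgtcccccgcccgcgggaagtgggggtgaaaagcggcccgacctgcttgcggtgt
CRELD2: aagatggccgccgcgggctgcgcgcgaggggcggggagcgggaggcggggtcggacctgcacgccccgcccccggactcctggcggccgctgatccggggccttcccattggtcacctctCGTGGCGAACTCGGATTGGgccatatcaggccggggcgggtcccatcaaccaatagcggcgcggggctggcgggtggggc
SDF2L1: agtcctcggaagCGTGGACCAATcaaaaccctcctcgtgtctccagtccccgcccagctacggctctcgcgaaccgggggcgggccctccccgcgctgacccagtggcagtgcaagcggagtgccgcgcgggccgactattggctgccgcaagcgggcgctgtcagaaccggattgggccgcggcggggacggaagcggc
HSP90AA1: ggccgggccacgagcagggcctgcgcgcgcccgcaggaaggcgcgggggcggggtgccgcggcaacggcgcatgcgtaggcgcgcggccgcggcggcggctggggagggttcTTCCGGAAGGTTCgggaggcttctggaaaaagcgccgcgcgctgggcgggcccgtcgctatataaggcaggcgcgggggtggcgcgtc
HSPB1: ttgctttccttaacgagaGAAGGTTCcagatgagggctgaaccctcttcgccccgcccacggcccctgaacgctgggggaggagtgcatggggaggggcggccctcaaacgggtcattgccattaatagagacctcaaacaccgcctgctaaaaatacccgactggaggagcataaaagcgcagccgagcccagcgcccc

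In all, 35 of the 37 genes had a window (47 windows). ERSE letters stood in 8 of the 27 windows of ER genes, against 0.0769% of all 35116 windows. The 8 were windows of CALR, CRELD2, HSP90B1, HSPA5 and PDIA6, and several of CANX. ERSE-II letters stood in 3 of the 27 windows, those of HERPUD1, HYOU1 and SDF2L1, against 0.0541% of all windows. The 3-unit heat shock element stood in 5 of the 20 windows of heat shock genes, those of DNAJA1, HSP90AA1, HSP90AB1, HSPA8 and HSPD1, against 0.49% of all windows. The 2-unit form stood in 8 of those 20 windows, with DNAJB1 and HSPB1 added, against 6.77% of all windows. No heat shock window held either ER element, no ER window held the 3-unit element, and a CANX window held the 2-unit form. These letters are matches and not shown to be bound. The elements were picked for these 2 classes of genes, so the shares describe the windows and are no test.

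**Figure D1:**
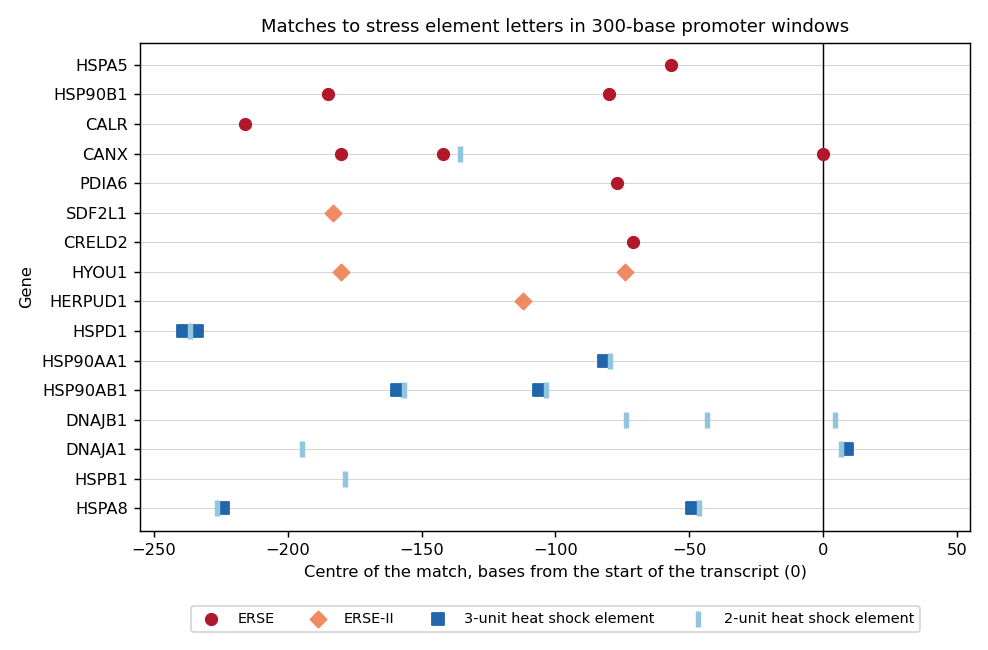
Centres of the matches to the ER stress elements and the heat shock elements in the promoter windows, in bases from the transcript start (0), 1 row per gene with a match. ER stress elements lie in 9 ER genes and the 3-unit heat shock element in 5 heat shock genes, and the 2 kinds of long element share no gene.

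Deposited intensities were scaled to a common trimmed mean of 150 on each array, and log2(intensity + 3.3) is the scale of every log2 level and difference below. The median log2 level of the genes tested was lowest on the JVM-13 array with DMSO, at 7.25, while the other 15 arrays lay between 7.82 and 8.02. The actin 3′/5′ ratio, which climbs as RNA breaks down, was 16.7 with AFN700 and 1.90 with DMSO in HBL-2. In JVM-13, 32.7% of all genes tested differed at least 2-fold between AFN700 and DMSO, and in HBL-2 14.3%. Some results that lean on these 2 lines are therefore also given without them. The 6 B-cell markers measured summed to 9217 to 14350 with DMSO in the 8 lines. CCND1 and SOX11, markers of mantle cell lymphoma, were at 78.7 and 0.1 in JVM-2 and at 4.8 and 1.4 in JVM-13 with DMSO. The other 6 lines had at least 394 and 584. CD5, also on that marker list, did not follow this split, at 71.0 in Maver-1 and 9.6 or less in every other line with DMSO. NFKBIA, a target gene of NF-kB, was lower with AFN700 in 6 of 8 lines (-0.63 ± 0.29, SE, adjusted p = 0.606 in limma), and so was TNFAIP3 (-0.90 ± 0.28, adjusted p = 0.484). The exceptions were JVM-13 and Maver-1, where all 6 NF-kB reporter genes were higher, by medians of 1.01 and 0.12. In Z-138 their median was -0.10 (NFKBIA -0.11, TNFAIP3 -0.05), while in REC-1 it was -1.24.

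Most of the genes varied less between untreated lines than the median gene tested, though 19 of the 35 still differed 2-fold or more between their highest and lowest line. The SD of the log2 DMSO level over the 8 lines had a median of 0.41 for the 22 ER genes and 0.24 for the 13 heat shock genes, against 0.70 for all genes tested. It was below the median of all genes in 19 ER and 11 heat shock genes. The highest line was at least 2-fold above the lowest in 15 of 22 ER genes (68.18%) and 4 of 13 heat shock genes (30.77%), against 86.92% of all genes. Most of the 35 were brighter than the median gene tested, and these comparisons with all genes were not matched for intensity. Among the steadiest, HSPA9, the mitochondrial HSP70, ran from 2191 in JVM-13 to 2651 in JVM-2 with DMSO, a factor of 1.21. HSPA5 ran from 2081 in GRANTA-519 to 2737 in JVM-2, and HSPD1, the mitochondrial HSP60, from 3225 in REC-1 to 4269 in HBL-2. The highest line was 1.31 times the lowest for HSPA5 and 1.32 times for HSPD1. PDIA6, a protein disulfide isomerase, and DNAJB1, an HSP40 that brings clients to HSP70, were as steady, each with an SD of 0.13. So was STIP1, which passes clients between HSP70 and HSP90, with an SD of 0.14. Other probe sets were less steady for some of these genes. An HSPD1 set ran from 1750 in REC-1 to 4039 in HBL-2, and an HSPA9 set from 530 in JVM-13 to 1382 in JVM-2. A STIP1 set ran from 495 in Maver-1 to 1600 in HBL-2, and an HSPA5 set from 122 in JVM-2 to 338 in HBL-2. The other sets of PDIA6 and DNAJB1 stayed within 2-fold.

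A few genes departed from this. HSPB1 with DMSO measured 40.2 in REC-1 but 487 in SP49, against a lowest of 286, a median of 1129 and a highest of 1285 in the insensitive lines. It was low in REC-1 and JVM-13, and the groups overlapped because SP49 lay above JVM-13. BAG3, a cochaperone that links HSP70 to autophagy, was at 165 and 183 in the sensitive lines, against a lowest of 16.7, a median of 173 and a highest of 400.5 in the insensitive lines. GRANTA-519 held the lowest BAG3 value on both of its arrays, 22.8 with AFN700 and 16.7 with DMSO. HSPB1 and BAG3 each have only 1 probe set of their own here.

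ERN1, the stress sensor IRE1, was at 302 and 305 in the sensitive lines with DMSO, against a lowest of 186, a median of 284 and a highest of 1314 in the insensitive lines. The high value was that of Z-138, and the other 2 ERN1 probe sets, 1 of them dim, were also highest there. DNAJB9, an ER J protein that represses IRE1, was at 463 and 209 in the sensitive lines, against a lowest of 297, a median of 542 and a highest of 1328 in the insensitive lines. Again Z-138 was highest, on all 3 DNAJB9 probe sets. CRELD2 measured 149 (REC-1) and 508 (SP49), against 281 to 924 in the insensitive lines, and DNAJC3, an ER J protein, was at 697 in REC-1 and 3018 in JVM-13, with the other lines between 1190.2 and 1581. All 4 DNAJC3 probe sets were lowest in REC-1 and highest in JVM-13. HERPUD1, an ER membrane protein of degradation, had its 2 lowest levels in JVM-13 (975) and REC-1 (1054), though not on its second, dim probe set.

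**Figure D2:**
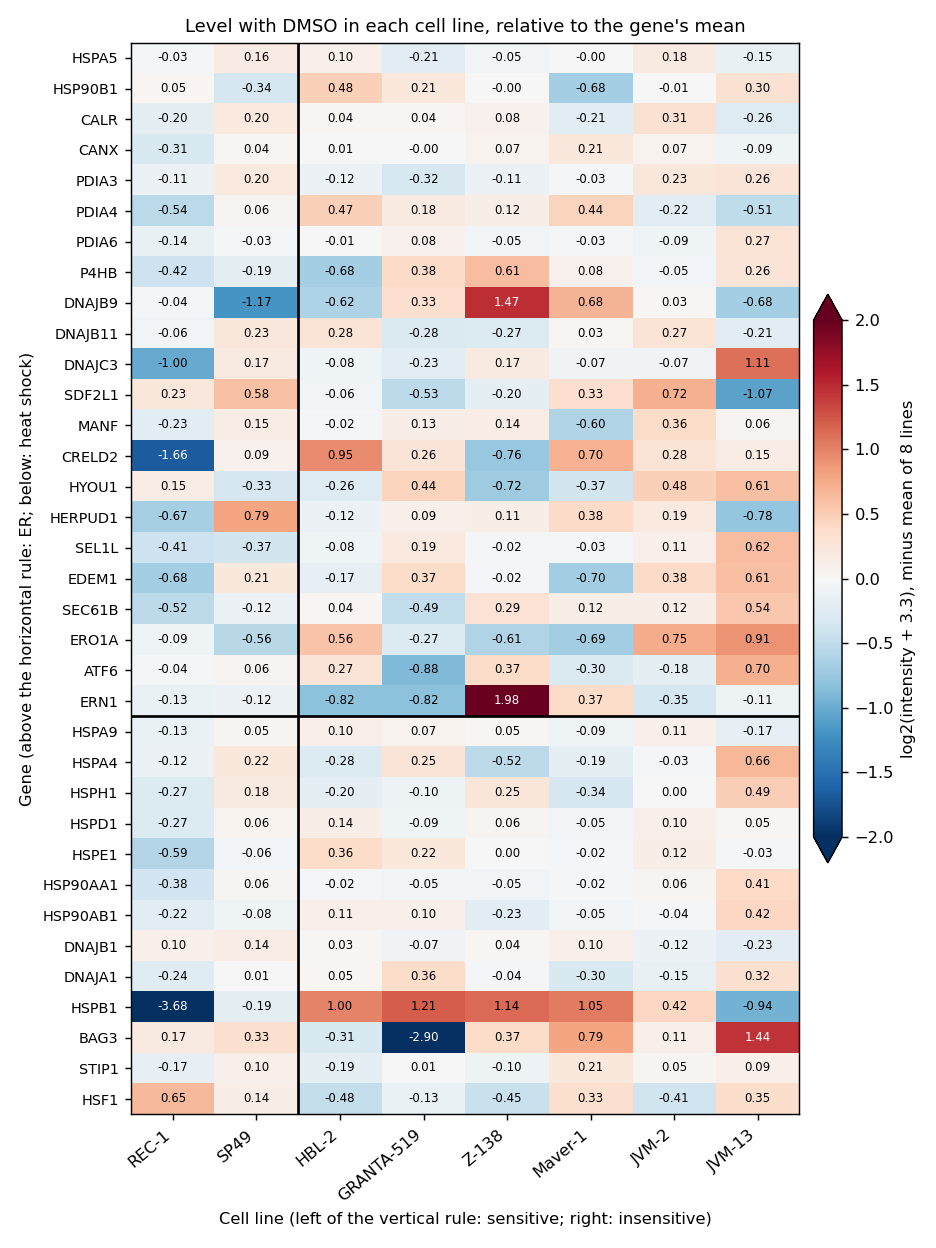
Level of each gene with DMSO in each cell line, as log2(intensity + 3.3) minus the mean of the 8 lines, ER genes above the horizontal rule and heat shock genes below, sensitive lines left of the vertical rule. Colour stops at 2 in either direction and the number in each cell is the value. Most rows are pale, and the strongest cells include those of HSPB1 in REC-1, BAG3 in GRANTA-519, and ERN1 and DNAJB9 in Z-138.

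The first comparison asked whether the untreated sensitive lines differ from the insensitive ones. None of the 35 genes was called, meaning an adjusted p under 0.05 over all genes tested in limma, where 0.00813% of all genes (1 gene, KCNJ16) were called. At an unadjusted p under 0.05 there were 2 of 35, HSPB1 and HSPE1, both lower in the sensitive lines, against 5.7% of all genes. HSPB1 differed by -2.58 ± 0.86 (SE, adjusted p = 0.818 in limma). That value rested on REC-1: it was -0.83 ± 0.76 without it and -4.32 ± 0.78 without SP49. HSPE1, the HSP10 that caps HSPD1, was at 2207 and 3185 in the sensitive lines, against a lowest of 3247, a median of 3460.4 and a highest of 4266 in the insensitive lines. The difference was -0.43 ± 0.17 (adjusted p = 0.861), and -0.17 ± 0.19 without REC-1.

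In 2 genes, HSPE1 and SEL1L, both sensitive lines lay below every insensitive line (5.71% of the 35 genes, against 3.49% of all genes). SEL1L, the adaptor of the ER degradation ligase, was at 986 and 1010.2 in the sensitive lines, against a lowest of 1235, a median of 1349 and a highest of 2008 in the insensitive lines. Its difference was -0.52 ± 0.23 (adjusted p = 0.866 in limma). The other SEL1L probe sets, all dim, overlapped between the groups, the brightest of them at 59.0 and 67.2 against 43.5 to 102.4. DNAJB1 alone lay above, at 1002 and 1029 against a lowest of 793, a median of 919 and a highest of 1000.2 (2.86% of the 35 genes, against 5.68% of all genes). CRELD2 was at -1.05 ± 0.55 (adjusted p = 0.89), which was -0.17 ± 0.61 without REC-1.

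The ER genes had a median difference of -0.18 between sensitive and insensitive lines, with 16 of 22 below 0, and the heat shock genes one of -0.06, with 9 of 13 below 0. The median of all genes was 0.07. Without REC-1 the ER median was -0.02, and with each array centred on its median it was -0.34. The 6 plasma cell markers measured moved with the label in the same direction: their summed intensity with DMSO was 1568 to 1890.5 in the sensitive lines, against 2972 to 10733 in the insensitive lines. SDC1, the plasma cell marker CD138, was at 7.9 and 37.6 in the sensitive lines, against 194 to 1838 in the insensitive lines. PRDM1 and TNFRSF17 were also apart, but IRF4, JCHAIN and SLAMF7 overlapped. IRF4 was at 444.5 in HBL-2 (622 and 484.6 in the sensitive lines) and JCHAIN at 687.8 in JVM-13 (690.3 and 779.3). SLAMF7 was at 1.9 in Maver-1 (7.5 and 47.0 in the sensitive lines). The part of these markers in the ER levels was not tested.

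The second comparison was AFN700 against DMSO within each line. Over the 8 lines 0 of 12305 genes were called in limma (0.0% of all genes and 0 of 35 members), and the same holds in the sensitive lines, in the insensitive lines and for the difference between them. At an unadjusted p under 0.05 there was 1 of 35 (DNAJB9) over the 8 lines, against 8.18% of all genes. There was 1 (CANX) in the sensitive lines, against 2.85%. There were 2 (DNAJB9 and HSP90B1) in the insensitive lines, against 6.04%, and 0 for the difference, against 1.48%. As 1 of 35 is 2.86%, no count exceeded the share of all genes by as much as 1 gene. In bulk RNA of a culture, fewer cells that express a gene and less of its RNA per cell cannot be told apart.

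DNAJB9 had a lowest intensity of 239, a median of 572 and a highest of 1056 with AFN700, against 209, 474 and 1328 with DMSO. It was higher with AFN700 in 7 of 8 lines and lower in Z-138, the line with the highest DMSO level, and the ranges overlapped. The difference over 8 lines was 0.33 ± 0.14 (SE, adjusted p = 0.595 in limma) and ran from 0.18 to 0.43 over the other settings tried, the smallest without JVM-13 and HBL-2. The other DNAJB9 probe sets were lower in Z-138 too, by -0.41 and -0.37, and higher in HBL-2, GRANTA-519, Maver-1 and JVM-13. The dimmer of them was lower in REC-1 (-0.49) and JVM-2 (-0.11) and higher in SP49 (0.50). The brighter was at 0.005 in REC-1, -0.01 in SP49 and 0.23 in JVM-2.

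HSP90B1 had a lowest intensity of 335, a median of 1315 and a highest of 1729.8 with AFN700, against 890, 1447 and 1993 with DMSO. The low treated values were those of Maver-1 (335 with AFN700, 890 with DMSO) and HBL-2 (969 with AFN700, 1993 with DMSO). Its second probe set was lower in both lines as well, by -0.69 and -1.72. The difference was -0.36 ± 0.17 over 8 lines (adjusted p = 0.606 in limma) and -0.47 ± 0.19 in the insensitive lines (adjusted p = 0.758), and without Maver-1 these were -0.21 ± 0.14 and -0.28 ± 0.17. These 2 lines also had the highest actin 3′/5′ ratios with AFN700, 18.8 in Maver-1 (10.3 with DMSO) and 16.7 in HBL-2, and the part of this ratio was not tested. The HSP90B1 sets used carry the suffix by which the maker marks probes that can bind similar transcripts.

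CANX, the membrane lectin chaperone calnexin, measured 3886 (REC-1) and 4212 (SP49) with AFN700, against 3028.5 and 3864 with DMSO. Both sensitive lines were higher with the inhibitor, by 0.36 and 0.12, while the insensitive lines ran from -0.10 to 0.11. The difference in the sensitive lines was 0.24 ± 0.10 (adjusted p = 1.0 in limma), and its excess over the insensitive lines was 0.22 ± 0.11 (adjusted p = 1.0). With quantile normalization these were 0.03 and -0.03, with the mean over probe sets 0.13 and 0.17, and without REC-1 0.12 and 0.10. HSP90AA1 was at 6120 and 6469 with AFN700 in the sensitive lines, against 4668 and 6355 with DMSO. It was higher by 0.39 in REC-1 and 0.03 in SP49, a difference of 0.21 ± 0.12 (adjusted p = 1.0 in limma) that was -0.043 with quantile normalization.

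**Figure D3:**
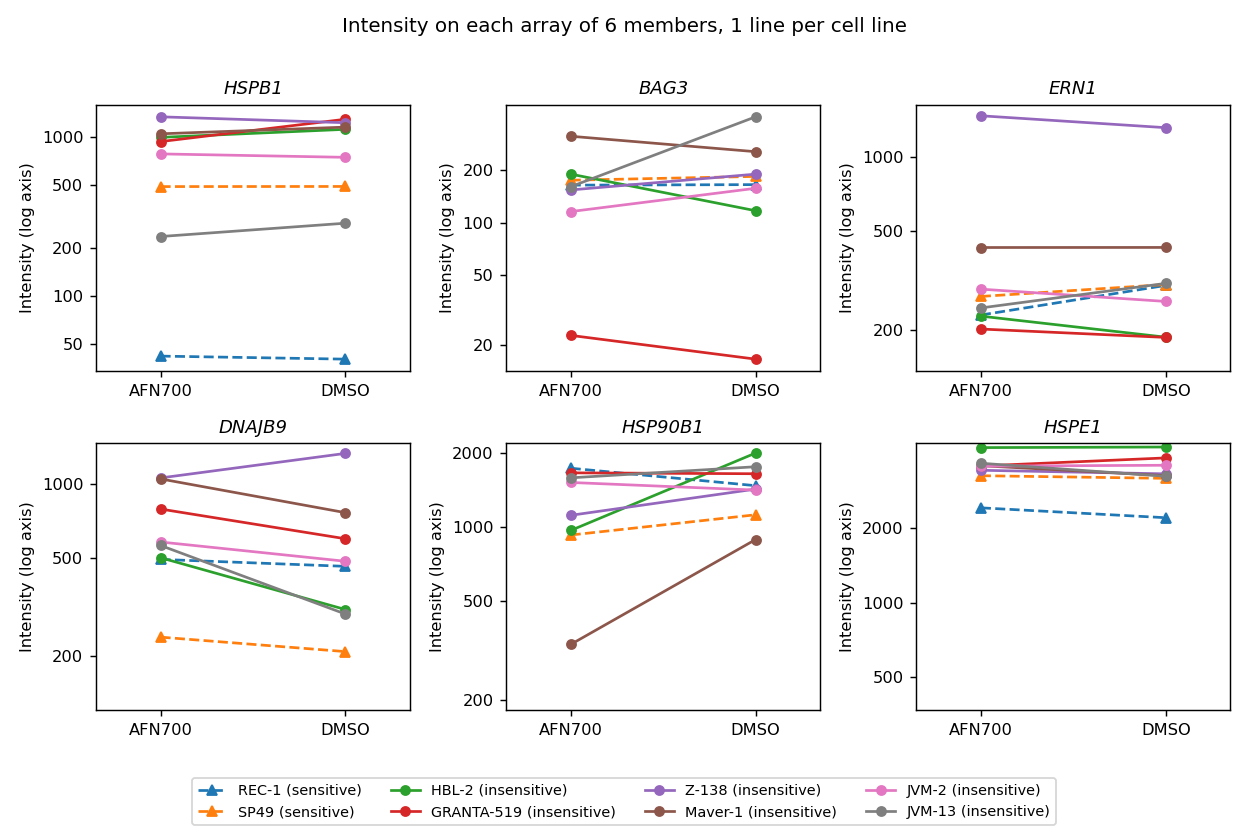
Intensity (log axis) of 6 of the genes on each AFN700 array and its DMSO partner, 1 line per cell line, triangles and dashes for the sensitive lines. HSPB1 and ERN1 differ between cell lines far more than between treatments. For BAG3 the gap is smaller, with log2 SDs of 1.13 for the line means and 0.61 for the responses. DNAJB9 is higher with AFN700 in 7 of 8 lines on the probe set used, and HSP90B1 is lower in Maver-1 and HBL-2.

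Within single lines the ER genes leaned one way more than the fits over lines show. In Z-138, 19 of the 22 ER genes were lower with AFN700, with a median of -0.29, while 45.05% of all genes were lower and their median was 0.03. CALR, the lectin chaperone calreticulin, was at 1159 with AFN700 and 2040 with DMSO (-0.81), CRELD2 at 174 and 281 (-0.68), SDF2L1 at 95.2 and 126 (-0.39), and MANF, a secreted ER stress protein, at 1284 and 1663 (-0.37). DNAJB11, a BiP cochaperone, HSP90B1, HYOU1, the large ER HSP70, DNAJB9, HERPUD1, SEC61B, a subunit of the translocation channel, and PDIA3, a disulfide isomerase of glycoproteins, lay between -0.36 and -0.31. The 3 exceptions were ATF6 (0.21), ERN1 (0.16) and CANX (0.05). Of the heat shock genes 11 of 13 were higher in Z-138, by a median of 0.05, and BAG3 (-0.29) and HSPA9 (-0.01) were lower. That small shift depended on scaling, with 6 of 13 higher and a median of -0.02 under quantile normalization.

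In REC-1 the ER genes leaned the other way. There 17 of 22 were higher with AFN700, with a median of 0.23, while 54.65% of all genes were higher and their median was 0.05. HYOU1 was at 1112 with AFN700 and 715 with DMSO (0.63), EDEM1, which extracts misfolded glycoproteins, at 987 and 673 (0.55), CALR at 2277 and 1680.3 (0.44) and P4HB, a disulfide isomerase, at 1277 and 944 (0.43). SDF2L1 (-0.68), CRELD2 (-0.58), ERN1 (-0.39), HERPUD1 (-0.12) and ATF6 (-0.11) were lower. In all, 16 of 22 ER genes were both higher in REC-1 and lower in Z-138, against 1 of 13 heat shock genes and 21.45% of all genes. These 2 lines were singled out after their values were seen, each is 1 pair of arrays, and the contrast therefore carries no test.

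The Z-138 median of the ER genes stayed between -0.36 and -0.28 with other pseudocounts, quantile normalization, centring and the mean over all probe sets. The REC-1 median was 0.12 with quantile normalization and 0.13 with the mean over probe sets, where 14 of 22 genes were higher. Other markers moved in Z-138 as well. All 6 plasma cell markers were lower there, with a summed intensity of 9014 with AFN700 and 10733 with DMSO, and the actin 3′/5′ ratio was 5.43 with AFN700 and 3.50 with DMSO. In REC-1, 4 of those 6 were lower, with a sum of 1411 with AFN700 and 1568 with DMSO. There the actin 3′/5′ ratio was 4.62 with AFN700 and 5.06 with DMSO. The ratio was also higher with AFN700 in SP49, HBL-2, Maver-1 and JVM-13, with ER medians of 0.018, -0.094, 0.045 and 0.071. In GRANTA-519 and JVM-2 it was slightly lower with AFN700, with ER medians of 0.004 and 0.028. Of the 3 T cell markers tested, CD3D was at 164 with AFN700 and 141 with DMSO in REC-1, CD3E at 147 and 89.1, and CD3G at 59.0 and 61.4, while in Z-138 CD3G was higher than that, at 91.6 and 106, and CD3D and CD3E at 5.4 or less. The part of these markers and of the actin ratio in the ER values was not tested.

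In the other 6 lines the ER medians were between -0.09 (HBL-2) and 0.07 (JVM-13), and the heat shock medians between -0.17 (HBL-2) and 0.04 (Maver-1). The mean over probe sets lowered the HBL-2 medians to -0.37 for ER genes (18 of 22 lower) and -0.34 for heat shock genes (12 of 13 lower). The JVM-13 values depended on scaling: centring each array gave medians of -0.59 for ER and -0.69 for heat shock genes, where the median of all genes was -0.39 with centring and 0.28 without. Across genes of the ER class the responses of 2 genes had a median Pearson r of 0.14 over the 8 lines, and of 0.33 over the 6 lines without JVM-13 and HBL-2, against 0.04 and 0.02 for all pairs of genes. For pairs of heat shock genes it was 0.03 and 0.09. Points of such a correlation share their arrays, and the few lines make each r imprecise.

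**Figure D4:**
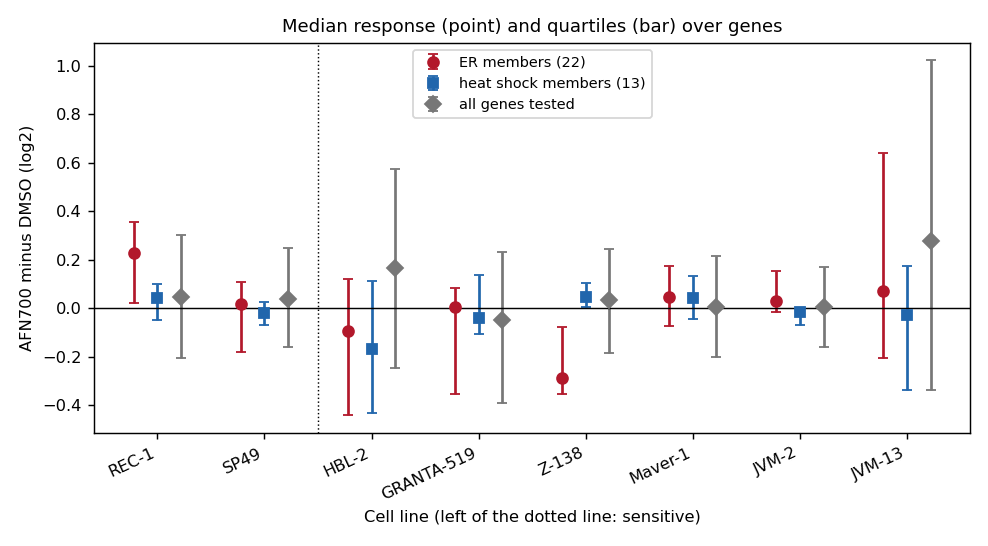
Median (point) and quartiles (bar) of AFN700 minus DMSO on the log2 scale in each cell line, for 22 ER genes, 13 heat shock genes and all genes tested, with the sensitive lines left of the dotted line. The ER genes lie above 0 in REC-1 and below 0 in Z-138, and the heat shock genes stay near 0 in most lines.

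Differences of 2-fold or more were few. They made up 12 of the 280 gene and line pairs, and 10 of the 12 came from HBL-2 and JVM-13. In JVM-13, SDF2L1 was at 360 with AFN700 and 67.6 with DMSO, and DNAJB11 at 1662 and 719, while DNAJC3 was at 1479 and 3018, EDEM1 at 737 and 1649.5, ATF6 at 209 and 445, and BAG3 at 160 and 400.5. That makes 6 of 35 genes (17.1%), against 32.7% of all genes. Another ATF6 probe set went the other way in JVM-13, by 1.67, while the rest were lower, by -1.49 and -1.05. In HBL-2, HSF1 was at 217 with AFN700 and 91.6 with DMSO, while HSP90B1, DNAJB11 (492 and 1008) and MANF (662 and 1483) were lower, 4 of 35 genes (11.4%) against 14.3% of all genes. The probe sets of one gene differed more in HBL-2, with a median range of 1.01 per gene, than in the other lines, where it was 0.14 to 0.55.

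In GRANTA-519, HSF1 was at 56.9 with AFN700 and 118 with DMSO, the only one of 35 (2.86%) against 8.14% of all genes, and in Maver-1 it was HSP90B1 (2.86%), against 3.05%. A second, dim HSF1 probe set went the other way in both HBL-2 and GRANTA-519. No gene of the 35 reached 2-fold in REC-1 (3.56% of all genes), SP49 (3.73%), Z-138 (2.74%) or JVM-2 (2.0%). In each of the 8 lines the share was below that of all genes. In REC-1, SP49, Z-138, Maver-1 and JVM-2 the share of all genes was 2.0% to 3.73%, and 1 of 35 genes is 2.86%. The counts in these lines are therefore too small to separate the 35 genes from all genes.

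**Figure D5:**
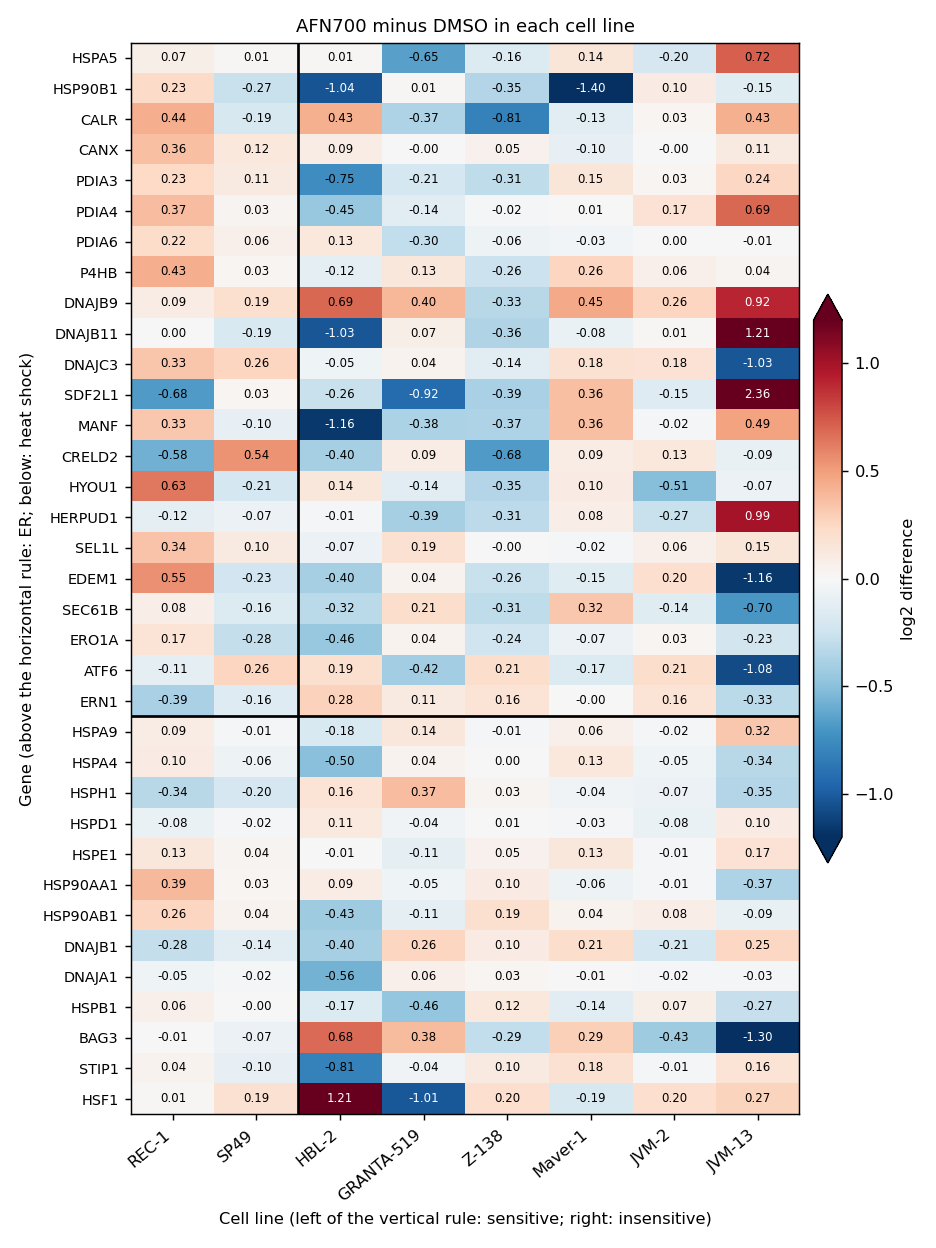
AFN700 minus DMSO on the log2 scale for each gene in each cell line, ER genes above the horizontal rule and heat shock genes below, sensitive lines left of the vertical rule. Colour stops at 1.2 in either direction and the number in each cell is the value. The column of Z-138 is blue in most ER rows and pale in the heat shock rows, and 10 of the 12 cells at 2-fold or more lie in HBL-2 and JVM-13.

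Among the disulfide isomerases and their oxidase, the response over 8 lines was small. PDIA3 was at -0.06 ± 0.11, PDIA4 at 0.08 ± 0.11, PDIA6 at 0.00 ± 0.07, P4HB at 0.07 ± 0.09 and ERO1A, which reoxidises them, at -0.13 ± 0.09 (SE). Among chaperones, HSPA5 was at -0.01 ± 0.11, CALR at -0.02 ± 0.13 and HYOU1 at -0.05 ± 0.13. HSPA5 was at -0.65 in GRANTA-519 and 0.72 in JVM-13, with the other 6 lines between -0.20 and 0.14. Its other, dimmer probe set was at -0.19 in GRANTA-519 and at -0.72 in JVM-13, the opposite direction there. The cochaperones DNAJB11 and DNAJC3 were at -0.05 ± 0.18 and -0.03 ± 0.13, SDF2L1 at 0.04 ± 0.29, and the secreted MANF and CRELD2 at -0.11 ± 0.16 and -0.11 ± 0.15. Of the degradation genes, HERPUD1 was at -0.01 ± 0.13, SEL1L at 0.09 ± 0.08 and EDEM1 at -0.17 ± 0.15, and SEC61B was at -0.13 ± 0.11. The sensors ATF6 and ERN1 were at -0.11 ± 0.17 and -0.02 ± 0.13.

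Most heat shock genes had responses near 0. HSPD1 was at 0.00 ± 0.05, HSPE1 at 0.05 ± 0.05 and HSPA9 at 0.05 ± 0.07. HSP90AA1 was at 0.01 ± 0.07 and HSP90AB1, the constitutive HSP90, at 0.00 ± 0.08. DNAJA1, an HSP40, was at -0.07 ± 0.08, with every line but HBL-2 (-0.56) between -0.05 and 0.06. HSPA4 and HSPH1, which act as nucleotide exchange factors of HSP70, were at -0.08 ± 0.09 and -0.06 ± 0.09, STIP1 at -0.06 ± 0.11, DNAJB1 at -0.03 ± 0.11, BAG3 at -0.10 ± 0.20, HSPB1 at -0.10 ± 0.11 and HSF1 at 0.11 ± 0.20. The median absolute response in a line was 0.10 for the heat shock genes and 0.19 for the ER genes, against 0.28 for all genes. That comparison was not matched for intensity either.

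The genes that hold ER elements in their promoter windows did not stand together in their spread. The 9 measured ones had SDs of the DMSO level from 0.13 (PDIA6) to 0.84 (CRELD2), with a median of 0.37, against 0.45 for the 12 ER genes with a window and neither element. In Z-138, 8 of the 9 were lower with AFN700 (median -0.35) and so were 10 of the 12 without (median -0.25). In REC-1, 6 of the 9 and 10 of the 12 were higher. The 4 measured heat shock genes with the 3-unit element, HSPD1, HSP90AA1, HSP90AB1 and DNAJA1, had SDs of 0.13 to 0.24, with a median of 0.21. The 8 with a window and no match to it had a median of 0.28. Their SDs ran from 0.11 (HSPA9) to 1.67 (HSPB1), with BAG3 at 1.28.

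The neighbouring genes of both pathways gave no calls in limma either. Among sensors and effectors of the unfolded protein response (0 of 11 called), CREB3L2, ATF3 and ATF4 differed between sensitive and insensitive lines with DMSO by -0.81 ± 0.38, -1.97 ± 0.93 and -0.31 ± 0.20, and with AFN700 CHAC1 and DDIT3 were at -0.48 ± 0.22 and 0.32 ± 0.17 over 8 lines. The ATF4 value rested on REC-1 (1848), since SP49 (2800.1) lay among the insensitive lines, and it was -0.01 without REC-1. The DDIT3 response leaned on JVM-13 (1.06) and HBL-2 (0.825), with the other lines between -0.15 and 0.44. It ran from 0.11 to 0.38 over the settings tried. The channel and signal peptide genes (0 of 16) held 3 at an unadjusted p under 0.05, all lower in the sensitive lines: SEC11C (-0.88 ± 0.23), SEC61A1 (-1.03 ± 0.27) and SSR4 (-0.37 ± 0.15). That is 3 of 16 genes, where 5.7% of all genes passed the same threshold. The folding enzymes had 1 of 17 (CNPY3, higher), the mitochondrial genes 1 of 8 (PHB2, lower), and each of the other lists 0. SEC61A1 encodes the channel itself. Their AFN700 responses were led by SEC62 (0.12 ± 0.06) and SSR2 (0.15 ± 0.08).

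Of the other ER folding enzymes (0 of 17 called), CNPY3 was higher in the sensitive lines (1.66 ± 0.58), PPIB, an ER cyclophilin, at -0.53 ± 0.27 and ERO1B at -1.15 ± 0.64, and with AFN700 TXNDC12 and TXNDC11 were at 0.23 ± 0.11 and 0.27 ± 0.13. Without REC-1 the DMSO difference was -0.04 for PPIB, which was low in that line alone (752, with SP49 at 1499), and -0.67 for ERO1B. Of the degradation genes (0 of 14), ERLEC1, an ER lectin, was higher with AFN700 in 8 of 8 lines (0.31 ± 0.09, adjusted p = 0.466 in limma) and UBE2G2 at -0.29 ± 0.13, while with DMSO UBE2G2, OS9 and DERL2 were at -0.24 ± 0.25, 0.53 ± 0.58 and 0.30 ± 0.35. Of the glycosylation and retrieval genes (0 of 12), LMAN1, STT3A and GANAB were at -0.47 ± 0.25, 0.57 ± 0.33 and 0.47 ± 0.35 with DMSO, and PRKCSH and STT3A at 0.39 ± 0.23 and 0.20 ± 0.12 with AFN700.

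Of the HSP70 and HSP90 cochaperones (0 of 17 called), CHORDC1 was lower with AFN700 in 8 of 8 lines (-0.23 ± 0.07, adjusted p = 0.496 in limma) and BAG2 in 7 of 8 (-0.46 ± 0.16), and FKBP4, ST13 and BAG6 were at -0.46 ± 0.29, -0.35 ± 0.24 and 0.35 ± 0.26 with DMSO. Of the other HSP70 and HSP40 genes (0 of 11), DNAJA2, HSPA4L and DNAJB2 were at -0.72 ± 0.55, -1.31 ± 1.36 and 0.54 ± 0.58 with DMSO, and HSPA14 and DNAJB2 at -0.22 ± 0.16 and 0.24 ± 0.18 with AFN700. The cytosolic chaperonin (0 of 7) had CCT8, CCT7 and CCT2 at -0.17 ± 0.12, -0.19 ± 0.23 and -0.09 ± 0.13 with DMSO and CCT6A and CCT7 at -0.08 ± 0.06 and -0.11 ± 0.09 with AFN700. Of the mitochondrial genes (0 of 8), PHB2, LONP1 and CLPX were at -0.64 ± 0.25, 0.50 ± 0.60 and -0.21 ± 0.31 with DMSO, and PHB2 and TRAP1 at -0.14 ± 0.09 and 0.16 ± 0.25 with AFN700. The collagen chaperone SERPINH1, the only tested gene of the small heat shock list besides the members, was at -1.07 ± 0.91 with DMSO and 0.11 ± 0.20 with AFN700. The sign turned under another setting or without 1 line for SEC62 and TRAP1 with AFN700, for FKBP4, ST13, DNAJB2, CCT8, CCT2 and CLPX with DMSO, and for SERPINH1 in both.

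In Z-138 most of these lists had more genes lower than higher with AFN700, where 45.05% of all genes were lower and their median was 0.03. With lists this short, the shares nearest to that of all genes differ from it by only a few genes. This held for 13 of 16 channel and signal peptide genes (median -0.13), 9 of 11 genes of unfolded protein response signalling (median -0.15), 11 of 17 other folding enzymes (median -0.09), 9 of 14 degradation genes (median -0.10) and 7 of 12 glycosylation and retrieval genes (median -0.12). It also held for 10 of 17 cochaperones (median -0.10) and 6 of 8 mitochondrial genes (median -0.14). The other HSP70 and HSP40 genes went the other way, with 8 of 11 higher (median 0.15), and so did the cytosolic chaperonin, with 5 of 7 higher (median 0.08). In REC-1, 54.65% of all genes were higher, with a median of 0.05. There 11 of 16 channel genes (median 0.16), 12 of 17 folding enzymes (median 0.23), 9 of 14 degradation genes (median 0.17) and 9 of 12 glycosylation and retrieval genes (median 0.06) were higher, and the 11 signalling genes were divided, 6 higher and 5 lower. The lean was not that of ER lists alone, as 6 of 7 chaperonin genes were higher (median 0.07). Of the cochaperones 10 of 17 were lower (median -0.11), and so were 6 of 11 other HSP70 and HSP40 genes (median -0.10), while the mitochondrial genes were divided, 4 higher and 4 lower.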

How the data were processed

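The authors deposited one linear intensity per probe set and array. The submitters' processing notes name MAS5, without a version. Each array has a mean of 150 once 2% of the values are trimmed at either end, as found from the values. Detection calls were not used, and dim probes therefore may hold background alone. Per the labels' protocols, RNA was amplified and labelled with a NuGEN kit. Probe sets were named with the platform annotation given, and those with several genes were left out. Probe sets of 1 gene numbered 41091. The set of highest mean signal stood for each of 19775 genes. The scale was log2(intensity + 3.3), where 3.3 is the 25th percentile of all values, so that differences of dim genes are understated. A gene was tested if it passed the 60th percentile of its array on 2 or more arrays.

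Tests were made in R 4.3.3 with limma 3.58.1 (lmFit, then eBayes with an intensity trend), with Benjamini-Hochberg adjustment over the 12305 genes tested, with a threshold of 0.05. The cell line was a block in the AFN700 comparisons, because both arrays of a pair come from one line by the labels. The DMSO comparison used the 8 DMSO arrays. SE is the moderated standard error, from a spread shared by the lines, so that for the 2 sensitive lines it is not their own spread. P-values measure the spread between lines, each with 1 array per treatment, and the number of arrays limits the precision. The members and lists were chosen with earlier results of these data known. Named genes are all measured members, NFKBIA and TNFAIP3 as a check of the inhibitor, and of each other list the called genes or, where none was called, the 3 of smallest p with DMSO and the 2 of smallest p over 8 lines. Promoter windows are those of RefSeq for GRCh38.p14. The fits were tested on simulated data. Alternatives were pseudocounts of 1 and 16, arrays centred on the median, quantile normalization, looser and stricter filters, the mean over probe sets, no trend, no line block and leaving out lines. The medians by line under other settings, and the correlations without JVM-13 and HBL-2, were added after seeing the data. Figures were drawn with matplotlib 3.10.9.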

Additional observations from a re-analysis of the deposited data

Results flagged for a closer look

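Within the 6 insensitive lines, a value was picked out when its gap to the next, divided by the whole range, passed Dixon's critical value for 6 values. Chance alone picks about 1 in 20 such groups of values. Of the 35 genes, 3 were picked for the log2 level with DMSO and 5 for AFN700 minus DMSO, and all 8 belonged to JVM-13 or HBL-2. The rule was not run on all genes tested, so these counts cannot show whether the 35 genes differ from the rest.

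With DMSO, JVM-13 was high for DNAJC3 (11.56, the other 5 lines 10.22 to 10.63) and HSP90AA1 (12.98, the others 12.52 to 12.64), and low for HSPB1 (8.18, the others 9.54 to 10.33). In the same line the AFN700 response was low for DNAJC3 (-1.03, the others -0.14 to 0.18) and HSP90AA1 (-0.37, the others -0.06 to 0.10), and high for HERPUD1 (0.99, the others -0.39 to 0.08). HBL-2 was low for DNAJA1 (-0.56, the others -0.03 to 0.06) and STIP1 (-0.81, the others -0.04 to 0.19). The JVM-13 DMSO array also had the lowest median level and HBL-2 the widest gap in the actin 3′/5′ ratio, and their part in these values was not tested. No gene had both sensitive lines on one side of 0 and all 6 insensitive lines on the other.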

How the results depend on the processing

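None of the 35 genes was called in any comparison under any alternative run. Over all genes, the count called over 8 lines was 0, against 37 without JVM-13 and HBL-2 and 0 to 10 when 1 line was left out (10 without JVM-13). In the sensitive lines it was 5 without JVM-13 and HBL-2. For the DMSO levels it was 1, against 3 with a pseudocount of 16, 5 with no filter, 8 with no trend, 0 above the 60th percentile on 8 arrays, 0 with the mean over probe sets and 0 without JVM-13 and HBL-2. Leaving out 1 line gave 0 to 46 there: 46 without SP49, 3 without GRANTA-519 and without JVM-2, 1 without Maver-1, and 0 without each of the other 4. Without the replicate block by cell line, the AFN700 comparisons called 0 genes. The ER median over 8 lines stayed at -0.03, which this setting cannot change, as each line has 1 array of each treatment.

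With centring the heat shock median was -0.126 over 8 lines, -0.181 in the insensitive lines, 0.17 for the difference in response and -0.222 for the DMSO levels, where the ER median was -0.336. In the sensitive lines the heat shock median was -0.0359 with quantile normalization and -0.04 with the mean over probe sets. Leaving out 1 line gave ER medians of 0.0204 (without REC-1) to 0.307 for the difference in response and of -0.222 to -0.0158 (without REC-1) for the DMSO levels, and heat shock medians of -0.272 (without SP49) to 0.0376 (without REC-1) for the DMSO levels.

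Signs turned in these values. With quantile normalization HSP90AA1 was at -0.043 in the sensitive lines and -0.0002 for the difference in response, CANX at -0.033 for that difference, and CCT8 and CCT2 at 0.016 and 0.0826 for the DMSO levels. With the mean over probe sets SEC62 was at -0.0444 over 8 lines and CCT8 at 0.145 for the DMSO levels. Leaving out 1 line gave DMSO differences of -0.131 to 1.201 for DNAJB2, -0.934 to 0.0123 for FKBP4, -0.744 to 0.0539 for ST13, -0.533 to 0.107 for CLPX, -2.77 to 0.624 for SERPINH1 and -0.175 to 0.228 for NFKBIA (also -0.0303 without Maver-1). Responses over 8 lines ran from -0.139 to 0.256 for TRAP1 and from -0.0048 to 0.224 for SERPINH1. Without JVM-13 and HBL-2 the TRAP1 response was -0.076 and the NFKBIA difference with DMSO -0.264, which was -0.105 with centring. The cause was not tested.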
